A study of Oryza sativa Indica Group with 8 samples.

Results

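Auxin signalling in the nucleus rests on a pair of gene families. Aux/IAA proteins are short-lived repressors that bind auxin response factors (ARFs), and auxin joins them to receptors of the TIR1/AFB kind, which sends the Aux/IAA protein to degradation. ARFs bind auxin response elements in promoters, and many Aux/IAA genes are themselves switched on by auxin, so their transcripts are widely used as a readout of the response. In roots the pathway is known for setting meristem growth, gravitropism and the formation of lateral and crown roots.

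The genes described here are those whose symbol or synonym in the rice gene table is IAA or ARF followed by a number, with or without an Os prefix. The table held 51 of them, 28 Aux/IAA and 23 ARF genes, and 43 had a probe set mapped to exactly 1 gene, 26 Aux/IAA and 17 ARF genes out of 17905 measured genes. The other 8 (IAA11, IAA29, ARF5, ARF6, ARF8, ARF19, ARF21 and ARF25) were not analysed here. Each gene is represented by its probe set with the highest mean over the arrays. In both families the numbers follow the order of the genes along the chromosomes, for 28 of 28 Aux/IAA and 23 of 23 ARF genes, so no gene of the unrelated ADP-ribosylation factor family, which shares the letters ARF, was recognised among them. In the literature some rice genes carry a different number, and 8 measured genes list another one as a synonym. They are IAA4 (also IAA20), IAA5 (also IAA8), IAA13 (also IAA1), ARF1 (also ARF16), ARF4 (also ARF2), ARF12 (also ARF8), ARF18 (also ARF10) and ARF23 (also ARF1).

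Transcripts were measured in roots of Oryza sativa Indica Group seedlings with 8 Affymetrix rice arrays, 2 for each of 4 groups. The groups were plants deprived of phosphorus (P) and iron (Fe) together, called the combined deficiency, plants deprived of P, plants deprived of Fe, and the control, which is titled by its P supply. All were grown hydroponically with no genetic change named in the labels, and the submitters give 7 days of treatment, 10 days of hydroponic growth and seedlings of 5 days, without saying how these times relate. Whether both arrays of a group stand for separate cultures is not given in the labels. The p-values therefore rest on array-to-array spread that may be purely technical.

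Median intensity per array was 48.0 to 68.9 as deposited, arrays of the same group correlated at 0.965 to 0.974, and the highest correlation of an array with one of another group was 0.965 to 0.967. The 2 control arrays correlated less with each other (0.9646) than control replicate 2 did with an Fe-deficient array (0.9661), and precision is limited by there being 2 arrays a group. Values below are quantile-normalized intensities on a linear scale, the log2 changes are differences of log2(intensity + 16), and a gene is said to have risen or fallen where its limma p, adjusted by the Benjamini-Hochberg method over all 57194 probe sets, was under 0.05. The added 16 understates changes of dim genes. The labels were checked on known starvation genes. Of the P starvation genes 6 of 6 rose in P deficiency and in the combined deficiency, and 0 of 6 passed in Fe deficiency. In Fe deficiency their median log2 change was still 0.63, and 3 of 6 had an unadjusted limma p under 0.05, beside 1263 of all 17905 genes. Of the Fe deficiency genes 3 of 5 rose in Fe deficiency, but 3 of 5 rose in P deficiency too. By calls the Fe deficiency genes therefore did not tell these groups apart. Their median log2 change was 1.92 in Fe deficiency and 0.85 in P deficiency. In the combined deficiency 3 of 5 rose against the control (median 1.07), but 0 of 5 passed against P deficiency (median 0.75). The root markers for the stele and the endodermis lay above the array median of 57.7 on every array, and so did the 3 shoot markers.

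Withholding P in the presence of Fe addressed how P supply alone altered the pathway. Of 26 Aux/IAA genes 4 were higher and 1 lower past the threshold, beside 8.02% and 7.33% of all genes. Of 17 ARF genes 15 had a log2 change above 0, beside 48.6% of all genes, and only ARF12 passed the threshold. With each array centred on its median in place of quantile normalization, 11 of the 17 were above 0. IAA31, IAA12, IAA13 and IAA30 rose between 1.75-fold and 3.14-fold in P deficiency, and IAA1 fell 1.81-fold. ARF12 rose 1.93-fold.

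IAA31 (LOC4352722) had 9015 and 5398 in P-deficient roots, against 1961 and 2494 in control roots. Both P-deficient arrays lay above both control arrays, although they differed from each other more than the control arrays did, and the log2 change was 1.65 (SE 0.292, limma adjusted p = 0.0292). IAA30 (LOC4352721), which lies next to IAA31 with 0 protein-coding genes between them in the gene table, had 7471 and 7769 in P-deficient roots, against 4479 and 4241 in control roots. Here the arrays within each group were close, and the log2 change was 0.80 (SE 0.128, limma adjusted p = 0.0228).

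IAA12 (LOC4333512) had 3871 and 4667 in P-deficient roots, against 1750 and 2082 in control roots, and its log2 change was 1.15 (SE 0.166, limma adjusted p = 0.0181). IAA13 (LOC4334069) is the repressor whose stabilised form leaves rice with fewer lateral roots. It had 15828 and 14856 in P-deficient roots, against 7780 and 6369 in control roots, and its log2 change was 1.12 (SE 0.156, limma adjusted p = 0.0167). In neither gene did the groups overlap, as was so for 67.5% of all genes in this comparison.

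IAA1 (LOC4323871) ran the other way, with 2374 and 2675 in P-deficient roots, against 4911 and 4275 in control roots. The log2 change was -0.86 (SE 0.150, limma adjusted p = 0.0283). IAA20 (LOC4340245) had 326 and 535 in P-deficient roots, against 832 and 1123 in control roots, without overlap. Its change of -1.18 on the log2 scale (SE 0.285, limma adjusted p = 0.0645) missed the threshold. The probe sets of IAA1 and IAA31 are not the only ones for these genes, and the second, dimmer one did not show the change, with log2 changes in P deficiency of -0.07 for IAA1 (means 66.9 in P deficiency and 67.2 in the control) and 0.11 for IAA31 (means 4.30 in P deficiency and 2.75 in the control).

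ARF12 (LOC4337363), a factor known in rice for root elongation, iron accumulation and phosphate homeostasis, had 2409 and 2231 in P-deficient roots, against 1217 and 1165 in control roots. The arrays of each group were close and the groups well apart, and the log2 change was 0.95 (SE 0.137, limma adjusted p = 0.0181). ARF16 (LOC9270361), a factor whose loss alters rice responses to phosphate starvation and to iron deficiency, had 727 and 1139 in P-deficient roots, against 443 and 504 in control roots. The log2 change of ARF16 was 0.92 (SE 0.242, limma adjusted p = 0.0796), which missed the threshold, and its P-deficient arrays stood apart from each other. ARF3 (LOC4327014) had 883 and 876 in P-deficient roots, against 538 and 467 in control roots, and its log2 change of 0.79 (SE 0.178, limma adjusted p = 0.0546) also missed it.

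**Figure D1:**
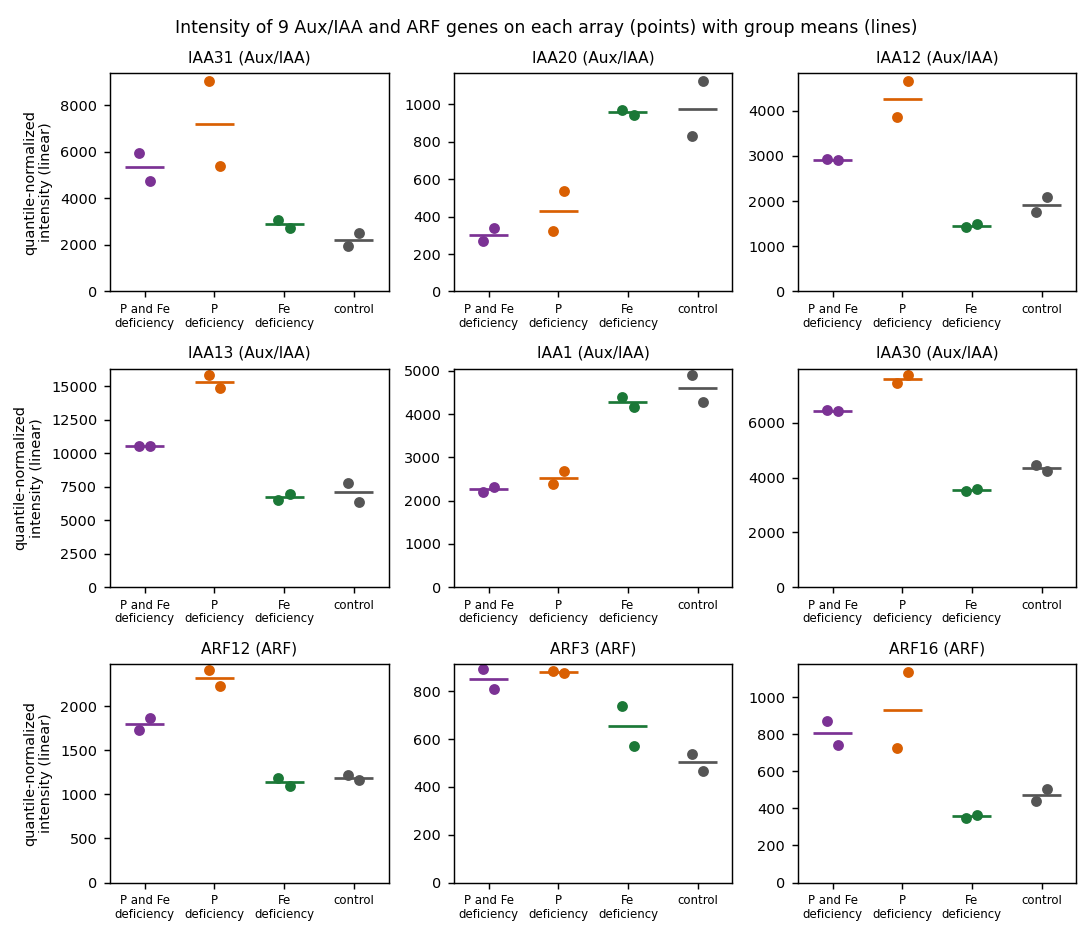
Quantile-normalized intensity (linear, vertical axes from 0) of 9 genes on each of the 8 arrays, with points for arrays and lines for the means of the combined deficiency, P deficiency, Fe deficiency and the control. IAA31, IAA12, IAA13, IAA30, ARF12, ARF3 and ARF16 are higher on the 4 arrays without P than on the 4 arrays with P. IAA20 and IAA1 are lower on them. The 9 genes were chosen by their calls or smallest p on these arrays, and 18.6% of all genes are higher and 20.6% lower in this way.

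Set beside all genes, 5 of 26 Aux/IAA genes and 1 of 17 ARF genes passed in P deficiency, where 15.4% of all genes did. Upward calls were 4 of 26 and 1 of 17, against 8.02% of all genes, and downward calls 1 of 26 and 0 of 17, against 7.33%. The median log2 change was -0.01 over the 26 Aux/IAA genes, 0.32 over the 17 ARF genes and -0.02 over all genes. Changes of Aux/IAA genes spanned -1.18 to 1.65, with 13 of 26 above 0, and those of ARF genes spanned -0.14 to 0.95, with 15 of 17 above 0, where 48.6% of all genes were. With each array centred on its median in place of quantile normalization, which moved the median of all genes to -0.21, 11 of 17 ARF genes were above 0 and 16 of 17 were above that median. That scaling called 3 Aux/IAA genes upward and 2 downward, 0 ARF genes, and 761 of all genes upward and 1737 downward.

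The calls rest on few arrays. Of the 6 genes, 0 passed without P deficiency replicate 1 or 2 (where 2 and 0 of all genes did) or without control replicate 2 (738 of all genes). Leaving out control replicate 1 (573 of all genes), or Fe deficiency replicate 1 or 2 (1083 each), kept 1 Aux/IAA gene. Leaving out replicate 1 or 2 of the combined deficiency (1650 of all genes each) kept 3 Aux/IAA genes and ARF12. With all arrays 2749 of all 17905 genes passed. With 1 array left out, the log2 changes lay between 1.28 and 2.02 for IAA31, 1.01 and 1.28 for IAA12, and 0.98 and 1.27 for IAA13. They lay between 0.76 and 0.84 for IAA30, -0.96 and -0.76 for IAA1, and 0.90 and 1.01 for ARF12. Leaving out 1 array could not reverse these signs, as P-deficient and control arrays did not overlap in any of the 6 genes. A fit to the 4 arrays of these groups alone called 0 of the 6 genes, but it also called 0 of all 17905 genes. A block on the replicate number, which does not pair the arrays, called 2 Aux/IAA genes, ARF12 and 7.68% of all genes.

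Markers of cell types moved in the same comparison. Of 8 markers of dividing cells 6 rose in P deficiency, and their summed intensity was 10628 to 12060 in P deficiency and 5348 to 6031 in the control. All 3 markers of the stele and its secondary walls rose (sums of 14632 to 14643 in P deficiency and 6092 to 6374 in the control). Of 3 endodermis markers 1 rose and 2 fell (sums of 22371 to 23061 in P deficiency and 34295 to 37445 in the control), and of 3 shoot markers 2 fell (sums of 29565 to 30384 in P deficiency and 45344 to 48357 in the control). No marker was at 0 on any array. Their part in the result was not tested, and in whole roots fewer cells of a type and less RNA per cell cannot be told apart.

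Withholding Fe in the presence of P gave no call in either family. Of 26 Aux/IAA and 17 ARF genes, 0 passed the limma test, in a comparison where 0.212% of all genes passed. An unadjusted p under 0.05 was found for 0 of them, beside 1263 of all 17905 genes. Both medians were -0.04, beside -0.01 for all genes, and changes spanned -0.39 to 0.41 for Aux/IAA and -0.39 to 0.87 for ARF genes. The 95% interval of the change lay within 2-fold either way for 23 of the 26 Aux/IAA genes and 16 of the 17 ARF genes. It reached 2-fold for IAA19, IAA26, IAA31 and ARF13. These intervals rest on 1 probe set per gene and on array spread that may be purely technical. Larger changes in the other genes are therefore not excluded.

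Among the genes described above, the values without Fe went both ways, all short of the threshold. IAA12 had 1420 and 1486 in Fe-deficient roots, against 1750 and 2082 in control roots (log2 change -0.39, limma adjusted p = 0.629). IAA30 had 3496 and 3600 in Fe-deficient roots, against 4479 and 4241 in control roots (-0.30, limma adjusted p = 0.637). ARF16 had 350 and 364 in Fe-deficient roots, against 443 and 504 in control roots (-0.39, limma adjusted p = 0.776). IAA31 had 3075 and 2715 in Fe-deficient roots, against 1961 and 2494 in control roots (0.38, limma adjusted p = 0.816), on the other side. In these 4 genes the groups did not overlap, as was so for 44.1% of all genes, while IAA13 (-0.06) and ARF12 (-0.07) lay near 0. The largest value in either family was that of ARF13 (0.87, limma adjusted p = 0.677), whose means lay below the array median in every group, with arrays at 32.5 and 53.6 in Fe deficiency and 28.4 and 6.68 in the control.

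**Figure D2:**
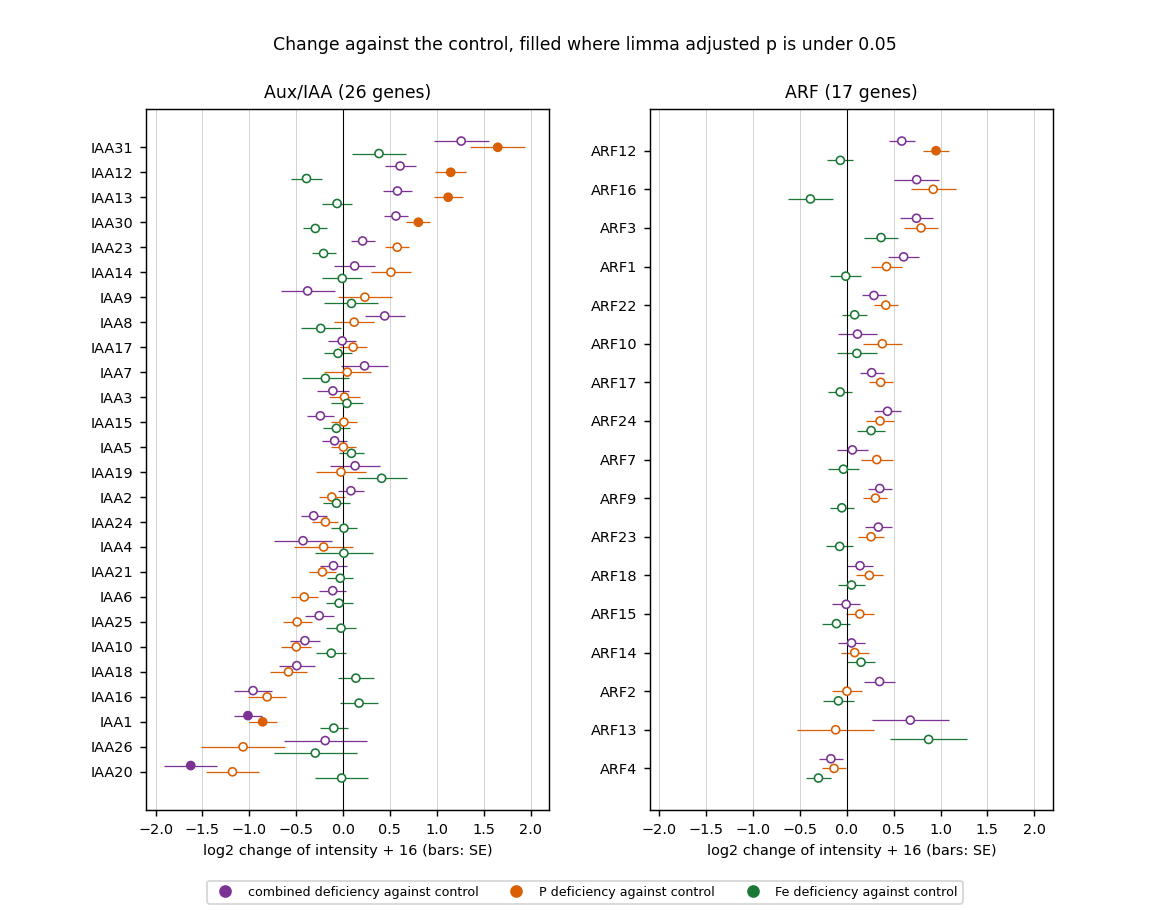
Log2 change of intensity + 16 against the control for the 26 Aux/IAA genes and 17 ARF genes, sorted by their change in P deficiency, with points for the combined, P and Fe deficiency, bars for the SE and filled points for adjusted p under 0.05. Aux/IAA genes spread from -1.18 to 1.65 in P deficiency, 15 of 17 ARF genes lie above 0 there (11 of 17 with arrays centred on their medians), and 0 points for Fe deficiency are filled.

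In the combined deficiency the Aux/IAA genes that passed against the control were those that were lower. IAA20 had 270 and 338 in roots lacking both nutrients, against 832 and 1123 in control roots, and fell 3.08-fold (log2 change -1.63, SE 0.285, limma adjusted p = 0.0443). IAA1 had 2203 and 2317 in roots lacking both, against 4911 and 4275 in control roots, and fell 2.02-fold (log2 change -1.01, SE 0.150, limma adjusted p = 0.0315). Both genes had well separated groups.

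The 5 genes that rose in P deficiency, and ARF3 and ARF16 with them, had values above the control in the combined deficiency that were smaller and short of the threshold. IAA31 had 5947 and 4760 in roots lacking both (log2 change 1.26, limma adjusted p = 0.0813), and IAA12 had 2934 and 2903 (0.61, limma adjusted p = 0.117). IAA13 had 10561 and 10505 (0.58, limma adjusted p = 0.114), and IAA30 had 6477 and 6426 (0.56, limma adjusted p = 0.0781). ARF12 had 1733 and 1861 (0.59, limma adjusted p = 0.0836), ARF3 had 892 and 810 (0.74, limma adjusted p = 0.0876) and ARF16 had 870 and 741 (0.75, limma adjusted p = 0.168). In each of these 7 genes both arrays lay above both control arrays, in a comparison where the groups did not overlap, in either direction, for 64.1% of all genes.

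Of all genes 6.7% passed in this comparison, 3.77% upward and 2.93% downward, beside 0 upward and 2 downward of 26 Aux/IAA genes and 0 of 17 ARF genes. At an unadjusted p under 0.05 there were 9 Aux/IAA and 6 ARF genes, beside 5300 of all 17905 genes. The median log2 change was -0.11 for Aux/IAA genes, 0.34 for ARF genes and -0.02 for all genes, and 10 of 26 Aux/IAA and 15 of 17 ARF genes were above 0. With arrays centred on their medians, where the median of all genes was -0.27, 9 of 17 ARF genes were above 0 and 14 of 17 above that median, and 323 of all genes were called upward and 877 downward. The calls on IAA20 and IAA1 were lost when any 1 of the 8 arrays was left out (changes of -1.84 to -1.41 for IAA20 and -1.11 to -0.92 for IAA1). Of all 17905 genes only 2 to 323 then passed, beside 1199 with all arrays. The dividing cell markers had sums of 8505 to 8603 in the combined deficiency and 5348 to 6031 in the control, with 1 of 8 higher past the threshold. Of the stele markers 2 of 3 rose (sums of 12373 to 13760 in the combined deficiency and 6092 to 6374 in the control), of the endodermis markers 1 rose and 1 fell (23058 to 25100 in the combined deficiency and 34295 to 37445 in the control), and of the shoot markers 2 of 3 fell (32095 to 33811 in the combined deficiency and 45344 to 48357 in the control). Their part in the result was not tested.

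Adding Fe withdrawal to P withdrawal changed 0 of 26 Aux/IAA and 0 of 17 ARF genes by the limma test, where 0.0391% of all genes passed. At an unadjusted p under 0.05 there were 3 Aux/IAA genes and 1 ARF gene, all 4 lower in the combined deficiency, beside 2048 of all 17905 genes. IAA13 had the smallest adjusted p of the 43 genes (log2 change -0.54, limma adjusted p = 0.346). IAA12 (-0.54, limma adjusted p = 0.368), IAA23 (-0.37, limma adjusted p = 0.424) and ARF12 (-0.37, limma adjusted p = 0.460) were the others. The interaction of both deficiencies, which asks whether their effects add on the log2 scale, passed for 0 of the 43 genes and for 0.0559% of all genes. Its unadjusted p was under 0.05 for 0 of the 43 genes and for 1418 of all 17905 genes.

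The effect of P could be measured again in roots lacking Fe. The log2 changes here come from arrays that those of P deficiency against the control did not use. The SE and p-values of both comparisons draw on a variance fitted over all arrays, so their calls are not independent. IAA12 had 2934 and 2903 in roots lacking both, against 1420 and 1486 in Fe-deficient roots, and rose 2.00-fold (log2 change 1.00, SE 0.166, limma adjusted p = 0.0497). IAA30 had 6477 and 6426 in roots lacking both, against 3496 and 3600 in Fe-deficient roots, and rose 1.81-fold (log2 change 0.86, SE 0.128, limma adjusted p = 0.0422). IAA1 had 2203 and 2317 in roots lacking both, against 4386 and 4170 in Fe-deficient roots, and fell 1.89-fold (log2 change -0.92, SE 0.150, limma adjusted p = 0.0482). All 3 had passed in the same direction in P deficiency against the control.

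IAA20 had 270 and 338 in roots lacking both, against 972 and 941 in Fe-deficient roots, about as far apart as from the control, and missed the threshold (log2 change -1.61, limma adjusted p = 0.0557). IAA13 had 10561 and 10505 in roots lacking both, against 6496 and 6981 in Fe-deficient roots (0.64, limma adjusted p = 0.105), and IAA31 had 5947 and 4760, against 3075 and 2715 (0.88, limma adjusted p = 0.197). ARF16 had 870 and 741 in roots lacking both, against 350 and 364 in Fe-deficient roots (1.13, limma adjusted p = 0.0803). ARF12 had 1733 and 1861 in roots lacking both, against 1181 and 1090 in Fe-deficient roots (0.66, limma adjusted p = 0.0781). In these 5 genes the groups did not overlap, as was so for 68.0% of all genes.

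In this comparison 4.11% of all genes passed, 2.64% upward and 1.47% downward. Of 26 Aux/IAA genes 2 passed upward and 1 downward, and of 17 ARF genes 0 passed. An unadjusted p under 0.05 was found for 10 Aux/IAA genes, 7 ARF genes and 5024 of all 17905 genes. The median was -0.11 for Aux/IAA genes and 0.21 for ARF genes, with 15 of 17 ARF genes above 0, but with arrays centred on their medians the ARF median was -0.15 and 7 of 17 were above 0. The median of all genes was then -0.30, and 16 of 17 ARF genes lay above it. That scaling called 0 Aux/IAA genes upward and 2 downward, and 109 of all genes upward and 311 downward. The 3 calls were lost when any 1 of the 8 arrays was left out (changes of 0.97 to 1.03 for IAA12, 0.84 to 0.88 for IAA30 and -0.95 to -0.88 for IAA1). Of all 17905 genes only 0 to 35 then passed, beside 736 with all arrays. Here 2 of 3 stele markers rose (sums of 12373 to 13760 in the combined deficiency and 5872 to 6426 in Fe deficiency), 2 of 8 dividing cell markers rose (8505 to 8603 in the combined deficiency and 5577 to 5590 in Fe deficiency) and 1 of 3 shoot markers fell (32095 to 33811 in the combined deficiency and 40660 to 44470 in Fe deficiency). Of the endodermis markers 0 passed (23058 to 25100 in the combined deficiency and 34642 to 34991 in Fe deficiency). Their part in the result was not tested.

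**Figure D3:**
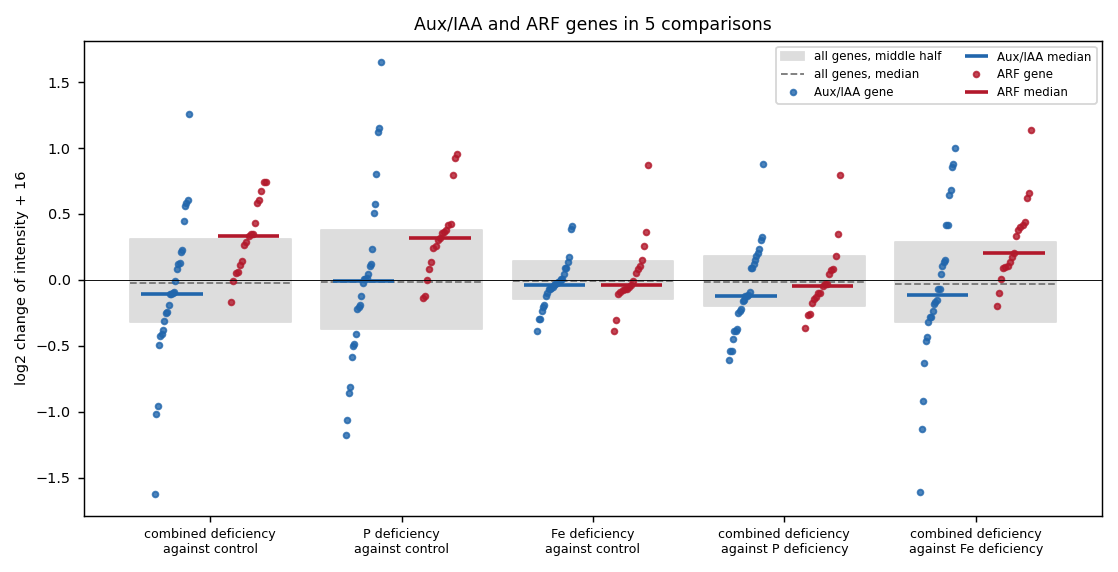
Log2 change of intensity + 16 in 5 comparisons for each Aux/IAA gene and each ARF gene (points), with family medians (solid lines) beside the median and the interquartile range of all genes (dashed line and grey box). The ARF median is 0.34 in the combined deficiency and 0.32 in P deficiency against the control and 0.21 in the combined against Fe deficiency, which falls to 0.01, 0.08 and -0.15 with arrays centred on their medians, whereas the plotted Aux/IAA medians lie between -0.13 and -0.01.

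The changes on P withdrawal measured with and without Fe share no array. Across the 26 Aux/IAA genes they had a Pearson correlation of 0.81, across the 17 ARF genes 0.71 and across all 17905 genes 0.66, and genes measured on the same arrays are not independent points. Of the Aux/IAA genes 20 of 26 had the same sign in both, 9 above 0 and 11 below. Of the ARF genes 15 of 17 did, 14 above 0 and 1 below, and over all genes 76.5% had the same sign and 36.1% were above 0 in both.

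**Figure D4:**
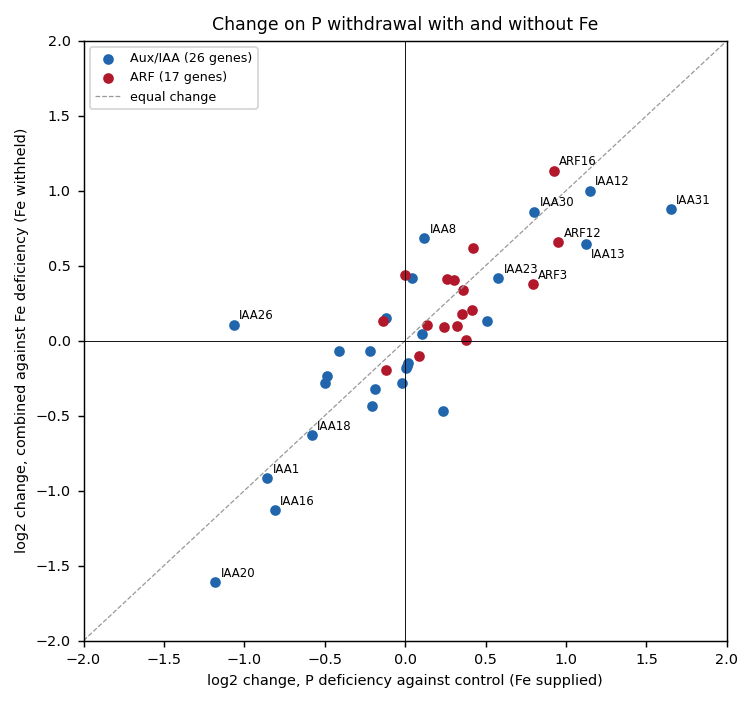
Log2 change of intensity + 16 on P withdrawal with Fe supplied (P deficiency against control, horizontal) and with Fe withheld (combined against Fe deficiency, vertical) for 26 Aux/IAA and 17 ARF genes, with a dashed line for equal change. Aux/IAA genes reach from IAA20 at the lower left to IAA12 and IAA31 at the upper right, and 14 of 17 ARF genes lie above 0 on both axes; with arrays centred on their medians fewer do, as 7 of 17 are then above 0 on the vertical axis.

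Across all 8 arrays, a gene can be described by whether its 4 arrays without P lay clear of its 4 arrays with P. This description was chosen after the values were seen and carries no test. The 4 arrays without P were all higher for 5 of 26 Aux/IAA genes (IAA12, IAA13, IAA23, IAA30 and IAA31) and for 9 of 17 ARF genes (ARF1, ARF3, ARF9, ARF12, ARF16, ARF17, ARF18, ARF22 and ARF23), beside 18.6% of all genes. They were all lower for 7 of 26 Aux/IAA genes (IAA1, IAA10, IAA16, IAA18, IAA20, IAA24 and IAA25) and 0 of 17 ARF genes, beside 20.6% of all genes. With arrays centred on their medians the ARF counts were 3 higher and 0 lower, the Aux/IAA counts 4 and 12, and those of all genes 8.89% and 35.8%, while on the deposited scale they were 8 and 0, 6 and 8, and 19.6% and 20.2%.

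IAA23 (LOC4341432), which in rice maintains the quiescent centre of the root tip, had 1669 and 1655 in P-deficient roots, against 1079 and 1138 in control roots. Its log2 change was 0.58 (SE 0.129, limma adjusted p = 0.0532), just short of the threshold, and a second bright probe set gave 0.57 (limma adjusted p = 0.063), although the first carries the suffix for probes shared with other sequences. IAA16 (LOC9272441) was dim, at 50 and 29 in P-deficient roots and 80 and 78 in control roots, with means on either side of the array median. Its log2 change was -0.81 (limma adjusted p = 0.0742), and it was -1.13 in the combined against Fe deficiency (limma adjusted p = 0.0594). IAA10 (LOC4331149), known as the target of a rice dwarf virus protein, had 1697 and 1660 in P-deficient roots, against 2454 and 2304 in control roots (-0.50, limma adjusted p = 0.129).

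Among the ARF genes, ARF1 (LOC4327785) had 6947 and 6956 in roots lacking both, 5743 and 6526 without P and 4640 and 4411 without Fe, against 4110 and 5060 in control roots. The change was 0.61 in the combined deficiency (limma adjusted p = 0.114) and 0.42 in P deficiency (limma adjusted p = 0.195). ARF23 (LOC4350610), which in rice acts with ARF24 on an actin-organising gene of root growth, had 6053 and 5985 in roots lacking both, 5755 and 5650 without P and 4557 and 4479 without Fe, against 5162 and 4396 in control roots. Its partner ARF24 (LOC4352211) had 1205 and 1280, 1143 and 1208, and 1029 and 1172 in the same order, against 972 and 861 in control roots, so that its Fe-deficient arrays overlapped the P-deficient ones. A second, dimmer probe set of ARF23 gave log2 changes of 0.39 in P deficiency and 0.34 in Fe deficiency, where the first gave 0.26 and -0.08. In the combined against Fe deficiency it gave 0.01, where the first gave 0.41. On the second the arrays without P overlapped those with P, so the separation of ARF23 listed above rests on the brighter probe set. ARF4 (LOC4326957) had log2 changes of -0.17 in the combined deficiency, -0.14 in P deficiency and -0.30 in Fe deficiency, none past the threshold, while its second probe set gave 0.03, -0.12 and -0.0066.

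ARFs with a glutamine-rich middle region act as activators in Arabidopsis, and the others are mostly repressors there. From background knowledge 8 of the 23 rice genes were taken as activator-type, of which ARF12, ARF16 and ARF17 were measured. Their log2 changes in P deficiency were 0.95, 0.92 and 0.36, with a median of 0.92, beside a median of 0.28 over the other 14, of which 12 were above 0. In the combined against Fe deficiency the medians were 0.66 and 0.15. With 5 of the 8 activator-type genes unmeasured, no comparison of the classes is drawn from these 3.

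Most members passed in no comparison. Of the 26 Aux/IAA genes this held for 20, and of the 17 ARF genes for 16. The same count over all genes was not made. Of all genes 15.4% passed in P deficiency, 6.7% in the combined deficiency and 4.11% in the combined against Fe deficiency. Passing in none was therefore common among all genes as well. IAA17 (LOC4338160), on a probe set whose suffix marks probes shared by several transcripts, had 24408 and 29196 in roots lacking both, 28948 and 28948 without P and 26175 and 25591 without Fe, against 25749 and 28037 in control roots. IAA3 (LOC4325890) had a log2 change of 0.02 in P deficiency, with an SE of 0.167. IAA26 (LOC4347643) had the lowest change in P deficiency after IAA20 (-1.07, limma adjusted p = 0.227), from dim arrays of 58.9 and 13.5 without P, against 90.2 and 75.3 in control roots. The second probe set of IAA8 was dim as well, with means of 40.9 in P deficiency and 1.62 in the control (log2 change 1.69, limma adjusted p = 0.0874), where the brighter one gave 0.12.

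By array, the median deviation of the 17 ARF genes from their own means over the 8 arrays was 0.10 and 0.17 on the log2 scale for the combined deficiency, 0.17 and 0.17 for P deficiency and -0.12 and -0.21 for Fe deficiency, against -0.12 and -0.22 for the control. That of the 26 Aux/IAA genes was -0.04 and 0.02 for the combined deficiency, -0.02 and -0.08 for P deficiency and -0.02 and 0.11 for Fe deficiency, against 0.04 and 0.06 for the control. The ARF medians on all 4 arrays without P lay above those on all 4 arrays with P under quantile normalization, but with arrays centred on their medians they overlapped, at -0.075 to 0.064 without P and -0.14 to 0.094 with P. The median of all genes on that scale was -0.20 to -0.086 on the arrays without P and 0.057 to 0.20 on those with P.

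Other auxin genes were measured for 25 genes found by name. In P deficiency 4 of 25 rose and 3 fell, beside 8.02% and 7.33% of all genes. Of these 7 calls 0 were made without P deficiency replicate 1 or 2 (2 and 0 of all genes) or with the 4 arrays alone (0 of all genes). When another array was left out, 3 to 6 of the 25 were called, beside 573 to 1650 of all 17905 genes. PIN2 (LOC4341736), an efflux carrier that moves auxin away from the root tip, rose by a log2 change of 1.98 (limma adjusted p = 0.0111) and PIN5 (LOC4327533) by 1.15 (limma adjusted p = 0.0296). ILL3 (LOC4334707), named after enzymes that release auxin from its conjugates, rose by 1.37 (limma adjusted p = 0.0124). The GH3 genes, whose best known products conjugate auxin to amino acids, went both ways, as GH3.1 (LOC4327043) rose by 2.09 (limma adjusted p = 0.0496) while GH3.2 (LOC4326893) changed by -1.41 (limma adjusted p = 0.0101) and GH3.6 (LOC4337780) by -0.96 (limma adjusted p = 0.0189). SAUR39 (LOC9271092), which in rice lowers auxin synthesis and transport, changed by -1.80 (limma adjusted p = 0.00855).

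In Fe deficiency 0 of the 25 passed (0.212% of all genes), and 3 had an unadjusted p under 0.05 (1263 of all 17905 genes). In the combined deficiency against the control PIN2 rose by 1.29 and GH3.2 changed by -0.89, and against Fe deficiency PIN2 rose by 1.38 while GH3.2 (-1.02) and SAUR39 (-1.18) fell. Without any 1 of the 8 arrays 0 of the 25 passed in these 2 comparisons, where only 2 to 323 and 0 to 35 of all 17905 genes did. The median change of the 25 in P deficiency was 0.03. Auxin receptors and influx carriers were not analysed here.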

How the data were processed

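The authors' deposited values are intensities on a linear scale for 57381 probe sets on 8 arrays, made in Affymetrix Expression Console 1.1 per the submitters' processing notes. The sources used here do not say how probe signals were summarised. The trimmed mean, leaving out 2% of probe sets at each end, was 500.07 on every array. No detection calls were used. Control (123) and reporter (64) probe sets were left out, and the remaining 57194 were quantile-normalized, converted to log2(intensity + 16) and fitted in limma 3.58.1 (R 4.3.3) by lmFit and eBayes, each of the 4 groups having its own mean, which left 4 residual degrees of freedom beside 1.74 of the prior. The p-values were adjusted by the Benjamini-Hochberg method over all of them, with a threshold of 0.05, two-sided, for 6 comparisons. The steps were tested on simulated data.

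Probe sets were tied to genes through the platform's annotation. Of the tested probe sets 22436 had 1 gene, 95 several and 34663 none. The gene table describes a japonica assembly and gives names only, the plants were Indica, and no coordinates or sequences are given. The members and lists were chosen with earlier results of these data known, and families are described by counts and medians beside all genes, with no test of a family. Array values are given for members past the threshold in any comparison, up to 8 per family and ordered by the size of their change, and, where under 3 of a family passed, for the 3 with the smallest p against the control. Members named beyond these were chosen after their values were seen. Alternatives were another scaling, another added constant, a filter on dim probe sets, another variance prior, a replicate block, a fit to 4 arrays, the mean of a gene's probe sets, and leaving out each array.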

Additional observations from a re-analysis of the deposited data

How the results depend on the processing

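Named calls never changed sign, but most settings could not have changed it. The groups compared did not overlap in these calls, so leaving out 1 array could not reverse them. The filter, the replicate block, the trended prior and the 4-array fit left the log2 changes themselves as they were. Of 11 calls (6 in P deficiency, 2 in the combined deficiency, 3 in the combined against Fe deficiency), 10 held on the deposited scale, 7 with arrays centred on their medians, 4 with an added constant of 1, 11 with 64, 11 among probe sets with a mean of at least 50, 3 with the replicate block, 11 with a trended, robust prior, 0 with the 4 arrays compared alone, 6 with the mean of a gene's probe sets, and 0 to 4 with 1 array left out. In P deficiency the Aux/IAA calls were 3 with the constant of 1, 12 with the filter, 2 with the replicate block, 11 with the trended prior, 0 on 4 arrays and 3 with the mean of probe sets, and the ARF calls 0 with centring, 4 with the constant of 64, 5 with the filter, 7 with the trended prior and 0 on 4 arrays. In the combined deficiency the Aux/IAA calls were 0 (constant of 1), 7 (64), 7 (filter), 0 (replicate block), 7 (trended prior), 0 (4 arrays) and 1 (mean of probe sets), and the ARF calls 3 (64), 4 (filter) and 7 (trended prior). Against Fe deficiency the Aux/IAA calls were 0, 6, 7, 0, 8, 0 and 1 under the same settings, and the ARF calls 3, 4 and 6. Against P deficiency the trended prior called 2 Aux/IAA genes. The share of all genes called moved as well, and on 4 arrays it was 0 in every comparison fitted that way. In P deficiency it was 9.77% with the constant of 1, 25.5% with 64, 35.6% with the filter, 7.68% with the replicate block and 33.8% with the trended prior, in the combined deficiency 2.51%, 15.1%, 23.4%, 0.318% and 24.7%, and against Fe deficiency 0.564%, 12.6%, 20.4%, 0.0614% and 22.3%. Centring moved the Aux/IAA medians to -0.22 in P deficiency, -0.43 in the combined deficiency, -0.22 against P deficiency, -0.38 against Fe deficiency and -0.21 for the interaction, and the ARF medians to 0.077, 0.012, -0.12 and -0.15 in the first 4 of these, with 9 and 7 ARF genes above 0 in the combined deficiency against the control and against Fe deficiency. The filter gave an ARF median of 0.27 against Fe deficiency, and the mean of probe sets 0.050 in Fe deficiency. With 1 array left out, calls numbered 0 to 3 (Aux/IAA) and 0 to 1 (ARF) in P deficiency and 0 in every other comparison. Calls over all 17905 genes then numbered 0 to 1650 in P deficiency, 2 to 323 in the combined deficiency and 0 to 35 against Fe deficiency. The medians then ran from -0.11 to -0.0096 (Aux/IAA) and 0.27 to 0.35 (ARF) in P deficiency, -0.079 to -0.0053 and -0.048 to 0.036 in Fe deficiency, -0.14 to -0.071 and 0.22 to 0.39 in the combined deficiency, -0.13 to -0.057 and -0.069 to -0.0057 against P deficiency, -0.14 to -0.052 and 0.19 to 0.26 against Fe deficiency, and -0.15 to -0.039 and -0.14 to -0.060 for the interaction. ARF genes above 0 then numbered 13 to 16, 14 to 16 and 14 to 16 in P deficiency, in the combined deficiency and against Fe deficiency; counting them was chosen after seeing the data. Fewer arrays leave fewer degrees of freedom, and the cause of the other differences was not tested. Replicate numbers did not pair the arrays, as same-numbered deviations correlated at -0.017 to 0.017. With 2 arrays a group and no detection calls, small changes and dim genes are measured poorly.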
